A study of Rattus norvegicus with 15 samples.

Results

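The mitochondrial solute carriers of family 25 (gene symbols Slc25a followed by a number) were read from a liver RNA sequencing table of 21576 genes. Every row whose symbol fits that pattern was taken, apart from Slc25a1, Slc25a15 and Slc25a20, which gave 44 carriers. Of these, 39 had enough counts to be tested. The other 5, Slc25a18, Slc25a31, Slc25a36l1, Slc25a41 and Slc25a53, never exceeded 35 counts in a library. Carriers were grouped by the substrate they are known to move, into 11 classes with 34 carriers and 1 group of 10 whose substrate was not assigned here.

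The livers came from male Sprague-Dawley rats in 3 groups, with 5 libraries each. The CON group was kept on normal chow. The HFD group received a diet of 66% base forage, 16.7% sucrose, 8.3% yolk, 7% lard, 2% cholesterol, 0.3% sodium cholate and 0.2% propylthiouracil, a blocker of thyroid hormone synthesis, with saline given in the last 4 weeks after 4 weeks on the diet. The ZXD group had that diet too, plus oral Zexie Decoction, a herbal extract, at a daily dose of 2.2 g per kg over the last 4 weeks. Both diet groups thus carry the lipid load and the blocker of thyroid hormone synthesis together, and these cannot be told apart. The labels give 10 rats per group and do not say which rat or rats each library holds. P-values therefore measure the spread between these libraries.

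Family 25 carriers sit mainly in the inner mitochondrial membrane, where they exchange nucleotides, phosphate, carboxylates, amino acids, cofactors and metal ions between the cytosol and the matrix. In the liver they feed ATP out of the matrix, supply aspartate and ornithine to urea synthesis, carry reducing equivalents through the malate-aspartate shuttle and bring in the phosphate, iron, coenzyme A and glutathione that matrix enzymes use. Several substrates have a pair of paralogous carriers, of which one usually dominates in a given tissue.

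Total counts ran from 12552449 to 14228052 per library. Albumin took 8.568% ± 0.628 (SD, n = 5) of the counts in CON, 4.329% ± 0.916 in HFD and 3.635% ± 1.23 in ZXD. The scaling factors used for tests, TMM factors, were 0.793 to 0.868 (CON), 1.07 to 1.13 (HFD) and 1.01 to 1.28 (ZXD). All 7 hepatocyte markers were present in every library, and their summed level was 122600 to 151550 CPM (counts scaled to a fixed TMM-scaled library size) in CON. It was 45600 to 64497 CPM in HFD and 26302 to 75457 CPM in ZXD. Albumin made up most of this sum, but all 7 markers had negative log2 fold changes in HFD against CON, with a median of -0.92. Ttr was at 5242 to 7845 CPM (CON), 1814 to 3591 (HFD) and 848 to 3501 (ZXD). Cps1 overlapped between the groups, with 4340 to 6195 CPM (CON), 2442 to 6114 (HFD) and 2840 to 8977 (ZXD). Myh4 of muscle and Ucp1 of brown fat were at 0 in all libraries, but other members of these lists were detected. The muscle markers summed to 0.177 to 15.1 CPM (CON, highest in CON 2), 0.817 to 2.01 (HFD) and 0.156 to 7.56 (ZXD). Cidea of brown fat was at 1.06 to 5.97 CPM (CON), 6.21 to 13.3 (HFD) and 6.16 to 8.88 (ZXD). All 9 macrophage and Kupffer cell markers were present in all 3 groups. Their summed level was 220.35 to 609.5 CPM in CON. It was 885, 2994, 1275, 431 and 2297 CPM in HFD 1 to HFD 5 and 1409, 639, 4477, 5513 and 2029 in ZXD 1 to ZXD 5. HFD 2, HFD 5, ZXD 3 and ZXD 4 stood highest. Cd74 and Lyz2 carried this sum, with 2115 and 280.9 CPM in HFD 2. Cd68 followed it, at 126.5 and 119.3 CPM in HFD 2 and HFD 5 and 140 and 160.2 in ZXD 3 and ZXD 4. In the other libraries Cd68 did not exceed 60.8 CPM. Cd163 and Clec4f did not follow the sum. Cd163 was at 11.0 and 8.60 CPM in HFD 2 and HFD 5, the lowest of all libraries, and Clec4f was at 178 and 136 CPM there, against 61.0 to 243 in CON. Endothelial markers summed to 57.8 to 283 CPM (CON), 61.4 to 266 (HFD) and 302 to 456 (ZXD). Cholangiocyte markers summed to 16.1 to 25.9, 46.2 to 82.9 and 37.0 to 48.2 CPM, and stood apart between CON and the diet groups. B cell markers summed to 0.475 to 2.87, 2.88 to 9.28 and 3.77 to 15.4 CPM. For B cells the highest CON library (2.869 CPM) and the lowest HFD library (2.878 CPM) all but met. T and NK cell markers summed to 10.9 to 33.1, 23.8 to 84.1 and 34.2 to 122 CPM. They too stood highest in HFD 2 and HFD 5 (84.1 and 71.9 CPM) and in ZXD 3 and ZXD 4 (98.5 and 122 CPM). Stellate cell markers summed to 55.2 to 116 CPM (CON), 50.0 to 190 (HFD) and 71.4 to 193 (ZXD). Their highest sums were in HFD 2, HFD 5 and ZXD 4, with ZXD 3 at 106 CPM. The part of these cells in the carrier differences from CON was not tested. In whole-liver RNA, fewer cells of a type and less RNA per cell cannot be told apart.

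Levels are given on the scale of the deposited FPKM values, which divide by gene length and total count. Mean FPKM over the 15 libraries ran from 0.405 to 259 among the tested carriers. It was at least 100 for 5 carriers, at least 10 for 18, and under 1 for 3. Slc25a47, a liver-enriched carrier, had the highest mean in each group at 303 ± 74.7, 280.3 ± 137 and 193 ± 70.2 FPKM (SD, n = 5) in CON, HFD and ZXD. The next 4 were Slc25a5, the ADP/ATP exchanger ANT2, at 151 ± 22.1, 139 ± 14.6 and 161 ± 23.6 FPKM, Slc25a39, a glutathione importer, at 122 ± 18.8, 136 ± 12.2 and 118 ± 17.3, Slc25a3, the phosphate importer, at 111 ± 13.8, 134 ± 13.1 and 139 ± 9.72, and Slc25a10, the dicarboxylate carrier, at 107 ± 15.4, 106 ± 22.4 and 87.9 ± 19.1. In HFD the values of Slc25a5, Slc25a39 and Slc25a3 differed by less than their SDs, so their order there is not resolved. Slc25a5 exceeded Slc25a47 in ZXD 3 (189 against 166 FPKM) and ZXD 4 (180 against 145), so their order in ZXD is not resolved either. In HFD 1, Slc25a47 was at 98.8 FPKM and Slc25a5 at 150. The summed counts of all carriers were 0.2445% ± 0.0173 of the library in CON, 0.2197% ± 0.0246 in HFD and 0.2125% ± 0.0221 in ZXD.

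**Figure D1:**
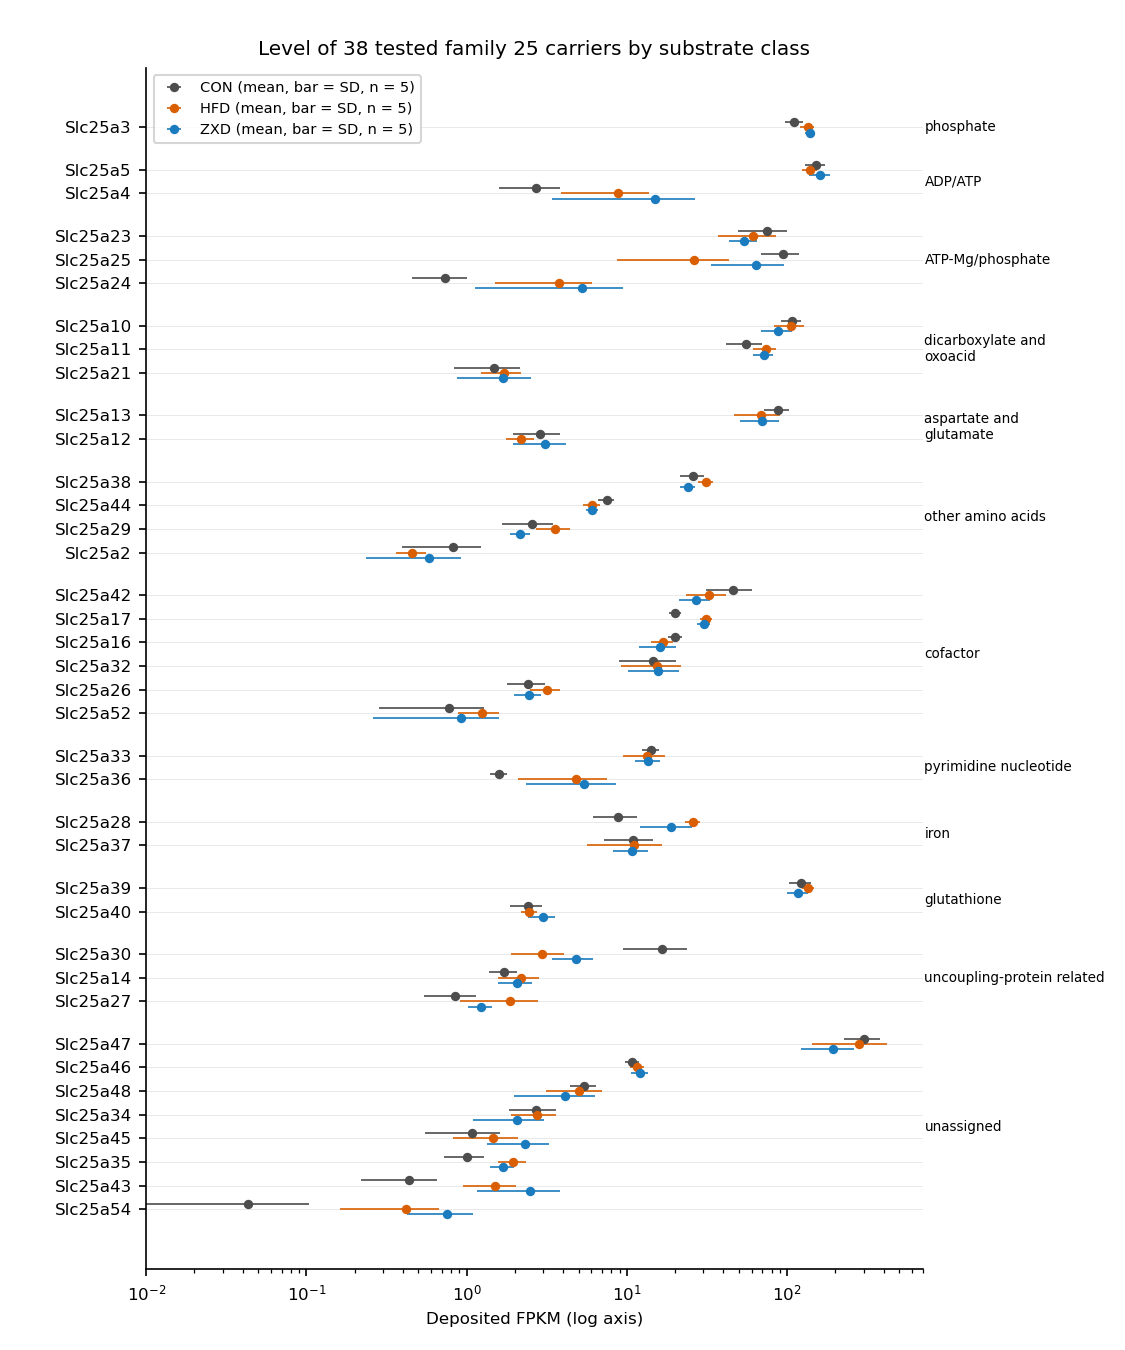
Deposited FPKM of 38 of the 39 tested carriers (log axis), grouped by substrate class; points are means and bars SD over 5 libraries in CON, HFD and ZXD. The SD bar of Slc25a54 in CON reaches below 0 and is cut at the axis. Slc25a47 has the highest mean in each group, and Slc25a30, Slc25a25 and Slc25a24 show the widest gaps between CON and HFD on this scale next to Slc25a54.

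Within the summed FPKM of the carriers, the ATP-Mg/phosphate class took 12.7% ± 2.55 in CON, 7.26% ± 2.33 in HFD and 10.2% ± 2.16 in ZXD. The share of the class related to uncoupling proteins was 1.41% ± 0.482, 0.546% ± 0.153 and 0.681% ± 0.188. The iron class took 1.47% ± 0.292, 2.88% ± 0.230 and 2.5% ± 0.760, and the phosphate class 8.29% ± 0.600, 10.6% ± 1.29 and 11.7% ± 1.55. These shares are set within a library and so do not depend on the scaling between libraries. A share also depends on the levels of the other carriers. The phosphate class is Slc25a3 alone, whose log2 fold change against CON was -0.14 in HFD and -0.10 in ZXD, neither of which passed. The shares were not tested.

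The first comparison asked how carrier RNA differs between diet and chow. In HFD against CON, 8 carriers fell and 5 rose at an adjusted p under 0.05, and 26 did not pass. Those that fell were Slc25a30, Slc25a25, Slc25a44, Slc25a42, Slc25a12, Slc25a13, Slc25a16 and Slc25a5. Those that rose were Slc25a28, Slc25a24, Slc25a36, Slc25a43 and Slc25a54. Called carriers made up 33.3% of the 39, against 21.0% of the 13163 genes tested, of which 10.0% were called higher and 10.9% lower. An unadjusted p under 0.05 was found for 23 carriers and for 37.0% of all genes. The HFD and CON libraries did not overlap for 8 carriers. Of these, 3 were higher in HFD, where 6.59% of all genes were higher without overlap, and 5 were lower, where 8.46% of all genes were. The median log2 fold change was -0.31 over the carriers and 0.02 over all genes. Among the 18 carriers with a mean of at least 10 FPKM, 1 rose and 5 fell, and among the 21 tested carriers below that level 4 rose and 3 fell. Over all genes, 418 rose and 971 fell at or above that level, and 904 rose and 465 fell below it. Scaling by library totals instead of TMM factors moved the median of all genes to 0.44 and that of the carriers to 0.11, with 9 carriers called higher and 3 lower. None of the 13 called carriers changed sign on that scale, and Slc25a25, Slc25a30 and Slc25a44 were the 3 still called lower.

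**Figure D2:**
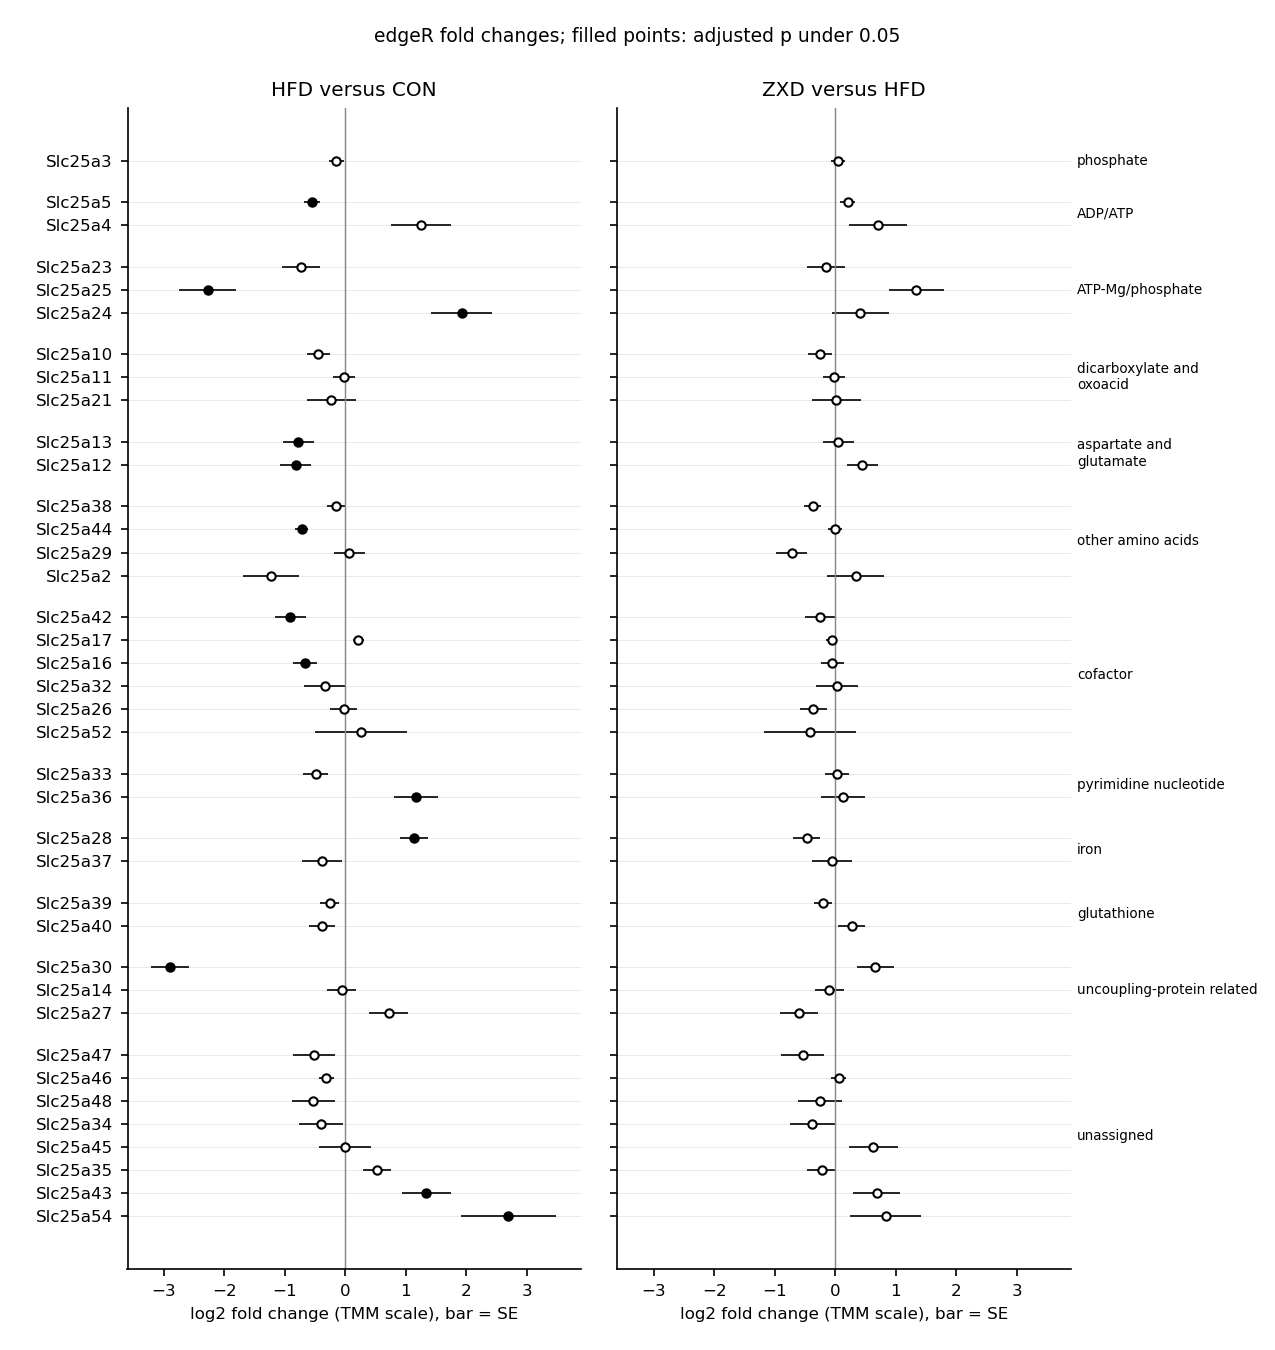
Log2 fold changes of 38 of the 39 tested carriers on the TMM scale in HFD versus CON (left) and ZXD versus HFD (right), with SE bars; filled points passed an adjusted p of 0.05 in edgeR and open points did not. The left panel holds 13 filled points, with Slc25a30 the lowest at -2.90, and the right panel holds none; the position of Slc25a54 depends on the prior count, as CON held almost no counts.

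The ADP/ATP exchangers bring ADP into the matrix and send ATP out. Slc25a5 (ANT2) stood at 169, 226, 218, 254 and 237 CPM in CON 1 to CON 5, at 159, 171, 155, 140.0 and 130.2 in HFD 1 to HFD 5 and at 153, 164, 204, 169 and 180.5 in ZXD 1 to ZXD 5. HFD 2 reached past CON 1, and all other HFD libraries lay below all CON libraries. Slc25a5 fell in HFD, with a log2 fold change of -0.55 (SE 0.13, adjusted p = 0.00915). On library totals its log2 fold change was -0.13 with an adjusted p of 0.445, the highest among 25 alternatives, whose lowest was 0.000219. Slc25a4 (ANT1), the form of heart and muscle, stood at 4.66, 6.59, 3.51, 4.96 and 1.70 CPM in CON, 7.38, 18.4, 4.58, 7.08 and 13.8 in HFD and 8.46, 5.92, 22.2, 33.7 and 13.5 in ZXD. Its highest values were in HFD 2, HFD 5, ZXD 3 and ZXD 4, the libraries with the highest summed macrophage markers. Cd74 and Lyz2 carried that sum, and Cd68 followed it while Cd163 did not. T and NK cell markers were also highest in these libraries, and stellate cell markers in HFD 2, HFD 5 and ZXD 4. The log2 fold change of Slc25a4 in HFD against CON was 1.26 (SE 0.50, adjusted p = 0.0827), which did not pass. Without HFD 2 and HFD 5 it was 0.57 (adjusted p = 0.546, the highest of 25 alternatives, whose lowest was 0.0201). The part of any of these cell types in the result was not tested. Slc25a3, which imports the phosphate that the ATP synthase joins to ADP, had a log2 fold change of -0.14 (SE 0.12, adjusted p = 0.390).

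The ATP-Mg/phosphate carriers set the size of the adenine nucleotide pool of the matrix and respond to cytosolic calcium. In CON, Slc25a25 was at 263, 444, 478, 332 and 275 CPM. It was at 33.9, 38.1, 128, 43.0 and 128 CPM in HFD and at 220.4, 254, 95.2, 74.0 and 295 CPM in ZXD. All HFD libraries lay below all CON libraries, with HFD 3 and HFD 5 above the other 3. Slc25a25 fell to 0.207 times its CON level, a log2 fold change of -2.27 (SE 0.47, adjusted p = 0.00458), and stayed called under all 25 alternatives. Slc25a24, a low-level paralogue, moved the other way. It stood at 3.5, 4.01, 2.09, 4.25 and 1.53 CPM in CON, 5.82, 21.7, 9.22, 5.65 and 16.2 in HFD and 9.83, 5.61, 19.7, 32.3 and 10.4 in ZXD. All HFD libraries exceeded all CON libraries, and HFD 2 and HFD 5 were the highest of them. Slc25a24 rose 3.80-fold in HFD (log2 fold change 1.93, SE 0.51, adjusted p = 0.0169). Without HFD 2 the log2 fold change was 1.58 and the call was lost (adjusted p = 0.0505). Without HFD 2 and HFD 5 it was 1.16 (adjusted p = 0.173, the highest of 25 alternatives, whose lowest was 0.000994). With ZXD 3 and ZXD 4 left out as well, it was again 1.16 and was called (adjusted p = 0.0477). Slc25a23, the third tested member, was at 104, 96.8, 121, 212 and 111 CPM in CON, 83.2, 94.4, 25.7, 84.7 and 99.2 in HFD and 81.5, 95.5, 63.5, 49.8 and 58.2 in ZXD. Its log2 fold change in HFD was -0.73 (SE 0.32, adjusted p = 0.107), with HFD 3 far below the other HFD libraries.

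The promoters of these paralogues, which moved in opposite directions, are shown from the RefSeq table of the GRCr8 build. Each is the 250 bases up to the start, 5′ to 3′ on the gene's strand. Slc25a25 lies at chr3:36116582-36116831 (minus strand) and Slc25a24 at chr2:199449175-199449424 (plus strand). Capitals mark the full cyclic AMP response element TGACGTCA, the CCAAT box (CCAAT, or ATTGG on the other strand) and the GC box (GGGCGG, or CCGCCC on the other strand).
Slc25a25: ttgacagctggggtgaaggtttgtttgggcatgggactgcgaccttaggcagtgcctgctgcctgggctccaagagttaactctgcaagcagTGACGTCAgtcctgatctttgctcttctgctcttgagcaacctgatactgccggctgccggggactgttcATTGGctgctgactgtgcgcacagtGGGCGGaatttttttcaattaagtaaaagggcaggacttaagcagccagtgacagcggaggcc
Slc25a24: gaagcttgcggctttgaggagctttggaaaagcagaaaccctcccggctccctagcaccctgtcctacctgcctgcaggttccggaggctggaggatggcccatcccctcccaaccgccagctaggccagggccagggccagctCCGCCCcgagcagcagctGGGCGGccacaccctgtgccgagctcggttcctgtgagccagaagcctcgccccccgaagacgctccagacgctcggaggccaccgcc
The full response element was found in 1.59% of 33469 rat promoters of the same length, searching both strands, and in 2 of the 35 carriers whose promoter was in the table, Slc25a25 and Slc25a33. GC boxes were in 30.5% of all promoters and 19 of the 35 carriers, CCAAT boxes in 34% and 19, and the TATAAA box in 12.9% and 2. The nuclear receptor half-site AGGTCA was in 14.1% of all promoters and in 6 carriers (Slc25a16, Slc25a27, Slc25a34, Slc25a39, Slc25a41 and Slc25a47). Only the first listed promoter of each carrier was searched, while the shares over all promoters count every entry. These matches describe letters in a window and no binding was measured. Slc25a26, Slc25a30, Slc25a32, Slc25a36, Slc25a36l1, Slc25a37, Slc25a46 and Slc25a52 were among those not matched.

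The class related to uncoupling proteins held the carrier with the smallest p-value. Slc25a30 (also called KMCP1), a relative of the uncoupling proteins first described in kidney, stood at 16.9, 35.8, 34.1, 27.5 and 53.8 CPM in CON. It stood at 4.01, 3.63, 7.01, 2.72 and 5.22 in HFD and 6.53, 4.52, 7.89, 8.29 and 8.55 in ZXD. All HFD and all ZXD libraries lay below the lowest CON library. Slc25a30 fell to 0.134 times its CON level in HFD (log2 fold change -2.90, SE 0.31, adjusted p = 3.9e-05) and stayed called under all 25 alternatives. Its relatives Slc25a14 and Slc25a27, known mainly from the brain, had log2 fold changes of -0.06 (SE 0.24, adjusted p = 0.881) and 0.72 (SE 0.32, adjusted p = 0.118) and were low in all groups. Slc25a14 averaged 1.71 ± 0.337, 2.19 ± 0.620 and 2.07 ± 0.5 FPKM in CON, HFD and ZXD, against 16.7 ± 7.23, 2.97 ± 1.08 and 4.78 ± 1.38 for Slc25a30.

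Both aspartate/glutamate carriers of the malate-aspartate shuttle fell in HFD. Slc25a13 (citrin), the liver form that exports aspartate for urea synthesis, stood at 419, 286, 274, 358 and 318 CPM in CON, 238, 138, 201, 266 and 122 in HFD and 266, 258, 165, 109 and 205 in ZXD. All HFD and all ZXD libraries lay below all CON libraries. The log2 fold change in HFD was -0.78 (SE 0.26, adjusted p = 0.0438). Slc25a12 (aralar), the form of brain and muscle, stood at 6.28, 8.82, 8.45, 15.2 and 9.36 CPM in CON, 6.47, 6.35, 5.39, 3.88 and 5.15 in HFD and 6.19, 4.67, 10.5, 8.96 and 6.88 in ZXD. HFD overlapped CON through CON 1, and its log2 fold change was -0.82 (SE 0.26, adjusted p = 0.0361). These calls are close to the threshold. The Slc25a13 call was lost without any 1 of CON 1 to CON 5, HFD 2, HFD 3, HFD 5, ZXD 3 or ZXD 5 (adjusted p 0.0514 to 0.106, log2 fold change -0.83 to -0.65). The Slc25a12 call was lost without any 1 of CON 2 to CON 5 or HFD 2 to HFD 5 (adjusted p 0.0535 to 0.106, log2 fold change -0.88 to -0.57).

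Among the dicarboxylate and oxoacid carriers none passed in HFD against CON. Slc25a10, which exchanges malate or succinate for phosphate, was at 212, 236, 230.2, 309 and 261 CPM in CON, 247, 163, 177, 168 and 164 in HFD and 122, 195, 174, 98.2 and 183 in ZXD. HFD 1 alone lay within the CON range, and the log2 fold change was -0.44 (SE 0.19, adjusted p = 0.108). The 3 members ranged from -0.44 to -0.02.

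Of the other amino acid carriers, Slc25a44, which imports branched-chain amino acids, fell in HFD. It stood at 27.1, 38.0, 34.2, 34.9 and 33.2 CPM in CON, 23.7, 18.8, 19.9, 21.3 and 17.9 in HFD and 19.7, 22.3, 18.2, 19.6 and 21.7 in ZXD. All 10 diet libraries lay below all CON libraries, within a narrow band. The log2 fold change in HFD was -0.72 (SE 0.11, adjusted p = 0.000687), and the call held under all 25 alternatives. On library totals it was -0.30, with an adjusted p of 0.0457 close to the threshold, the highest of the 25. Slc25a38, the glycine importer of heme synthesis, had a log2 fold change of -0.15 (SE 0.14, adjusted p = 0.457). The class median was -0.44 over 4 carriers.

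Of the 7 cofactor carriers, 2 fell in HFD and none rose. Slc25a42, the coenzyme A importer, was at 104, 171, 193, 109 and 201 CPM in CON, 73.4, 48.9, 113, 92.2 and 85.9 in HFD and 73.7, 80.4, 61.0, 41.8 and 91.2 in ZXD. HFD 3 alone reached into the CON range, and all ZXD libraries lay below it. The log2 fold change in HFD was -0.91 (SE 0.26, adjusted p = 0.0227). Slc25a16 was at 73.7, 65.8, 78.4, 83.3 and 81.1 CPM in CON, 49.3, 43.2, 44.1, 62.1 and 42.1 in HFD and 56.0, 62.9, 32.6, 28.8 and 53.2 in ZXD. Both diet groups lay wholly below CON, and the log2 fold change in HFD was -0.67 (SE 0.19, adjusted p = 0.0265). The Slc25a42 call was lost without any 1 of CON 2, CON 3, CON 5 or HFD 2 (adjusted p 0.0538 to 0.0646). The Slc25a16 call was lost without any 1 of CON 3 to CON 5, HFD 2, HFD 3 or HFD 5 (adjusted p 0.0538 to 0.0693). The other 5 cofactor carriers, among them the S-adenosylmethionine and folate/FAD carriers, did not pass. Slc25a17, a peroxisomal carrier of coenzyme A and other cofactors, had a positive log2 fold change of 0.22 (SE 0.09, adjusted p = 0.0960).

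Of the 2 iron carriers, 1 rose in HFD. Slc25a28 (mitoferrin-2), the iron importer of most non-erythroid cells, stood at 21.4, 10.9, 16, 12.8 and 20.7 CPM in CON, 32.7, 40.2, 41.4, 33.7 and 31.6 in HFD and 17.5, 17.6, 37.4, 24.7 and 32.4 in ZXD. All HFD libraries exceeded all CON libraries, while ZXD 1 and ZXD 2 lay within the CON range. Slc25a28 rose 2.19-fold in HFD (log2 fold change 1.13, SE 0.23, adjusted p = 0.00422) and stayed called under all 25 alternatives. Without HFD 2 and HFD 5 its log2 fold change was again 1.13. Slc25a37 (mitoferrin-1), the erythroid form, had a log2 fold change of -0.38 (SE 0.33, adjusted p = 0.418), with 20.7 ± 6.60 CPM in CON and 15.9 ± 8.07 in HFD, and its sign turned on library totals (0.025) and without HFD 2 and HFD 5 (0.0036). The erythroid markers summed to 11.6 to 57.0 CPM (CON), 23.7 to 82.6 (HFD) and 5.57 to 144 (ZXD), and their part in this value was not tested. The Slc25a28 promoter, at chr1:252491343-252491592 (minus strand, GRCr8), is shown for its 3 GC boxes and 3 CCAAT boxes, marked by capitals as above, and holds no AGGTCA.
Slc25a28: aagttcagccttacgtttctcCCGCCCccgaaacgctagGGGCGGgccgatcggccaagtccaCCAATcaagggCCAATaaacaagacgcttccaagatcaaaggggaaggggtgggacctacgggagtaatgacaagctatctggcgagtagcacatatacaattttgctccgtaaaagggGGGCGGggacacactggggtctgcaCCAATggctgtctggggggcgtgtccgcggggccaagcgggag

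The pyrimidine nucleotide carriers supply nucleotides to mitochondrial DNA and RNA synthesis. Slc25a36 was at 10.5, 11.1, 8.45, 9.22 and 9.79 CPM in CON, 12.2, 30.1, 20.0, 9.40 and 38.4 in HFD and 19.8, 12.3, 28.4, 41.3 and 18.8 in ZXD. HFD 4 lay within the CON range, and the highest values were again in HFD 2, HFD 5, ZXD 3 and ZXD 4. Slc25a36 rose in HFD, with a log2 fold change of 1.17 (SE 0.37, adjusted p = 0.0372). The call was lost without any 1 of CON 1 to CON 5, HFD 2, HFD 3 or HFD 5 (adjusted p 0.0520 to 0.110). Without HFD 2 and HFD 5 the log2 fold change was 0.50 (adjusted p = 0.386, the highest of 25 alternatives, whose lowest was 0.00729). The part of macrophages, T and NK cells or stellate cells in it was not tested. Reads could be split between Slc25a36 and its copy Slc25a36l1, so its values are uncertain. Slc25a33 had a log2 fold change of -0.49 (SE 0.20, adjusted p = 0.0979).

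The glutathione carriers did not pass in HFD against CON. Slc25a39, which brings glutathione into the matrix, was at 184, 244, 226, 182 and 233 CPM in CON, 176, 177, 177, 209 and 155 in HFD and 187, 188, 139.7, 109 and 154 in ZXD. Its log2 fold change was -0.26 (SE 0.15, adjusted p = 0.238), and that of its low-level paralogue Slc25a40 was -0.38 (SE 0.22, adjusted p = 0.217).

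Of the 8 tested carriers with no substrate assigned here, 2 rose and none fell. Slc25a43 was at 2.24, 1.25, 0.570, 2.04 and 0.936 CPM in CON, 2.46, 5.37, 2.73, 2.79 and 4.54 in HFD and 3.58, 3.04, 6.98, 9.27 and 5.87 in ZXD. All diet libraries exceeded all CON libraries, with HFD 2, HFD 5, ZXD 3 and ZXD 4 among the highest. Slc25a43 rose 2.53-fold in HFD (log2 fold change 1.34, SE 0.40, adjusted p = 0.0308). The call was lost without any 1 of CON 2, CON 3, CON 5, HFD 2 or HFD 5 (adjusted p 0.0608 to 0.0824). Without HFD 2 and HFD 5 the log2 fold change was 0.91 (adjusted p = 0.231, the highest of 25 alternatives, whose lowest was 0.00563). Slc25a54 had 2, 0, 0, 3 and 0 counts in CON, 6, 16, 3, 7 and 14 in HFD and 15, 6, 26, 17 and 18 in ZXD. It was called higher in HFD (adjusted p = 0.0260), and no fold is given because no CON library exceeded 3 counts. That call was lost without any 1 of CON 2, CON 3, CON 5, HFD 2 or HFD 5 (adjusted p 0.0555 to 0.0672). Slc25a47 was at 573, 634, 720.5, 349 and 569 CPM in CON, 136, 288, 661, 499 and 404 in HFD and 247, 252, 231, 176 and 462 in ZXD. Its HFD libraries spread from below to within the CON range, and the log2 fold change was -0.52 (SE 0.35, adjusted p = 0.300). Slc25a21 and Slc25a35 overlap Pax9 and Rangrf on the opposite strand in the deposited coordinates, and strand use in counting is not given in the sources used here, so the values of these 2 carriers are uncertain.

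**Figure D3:**
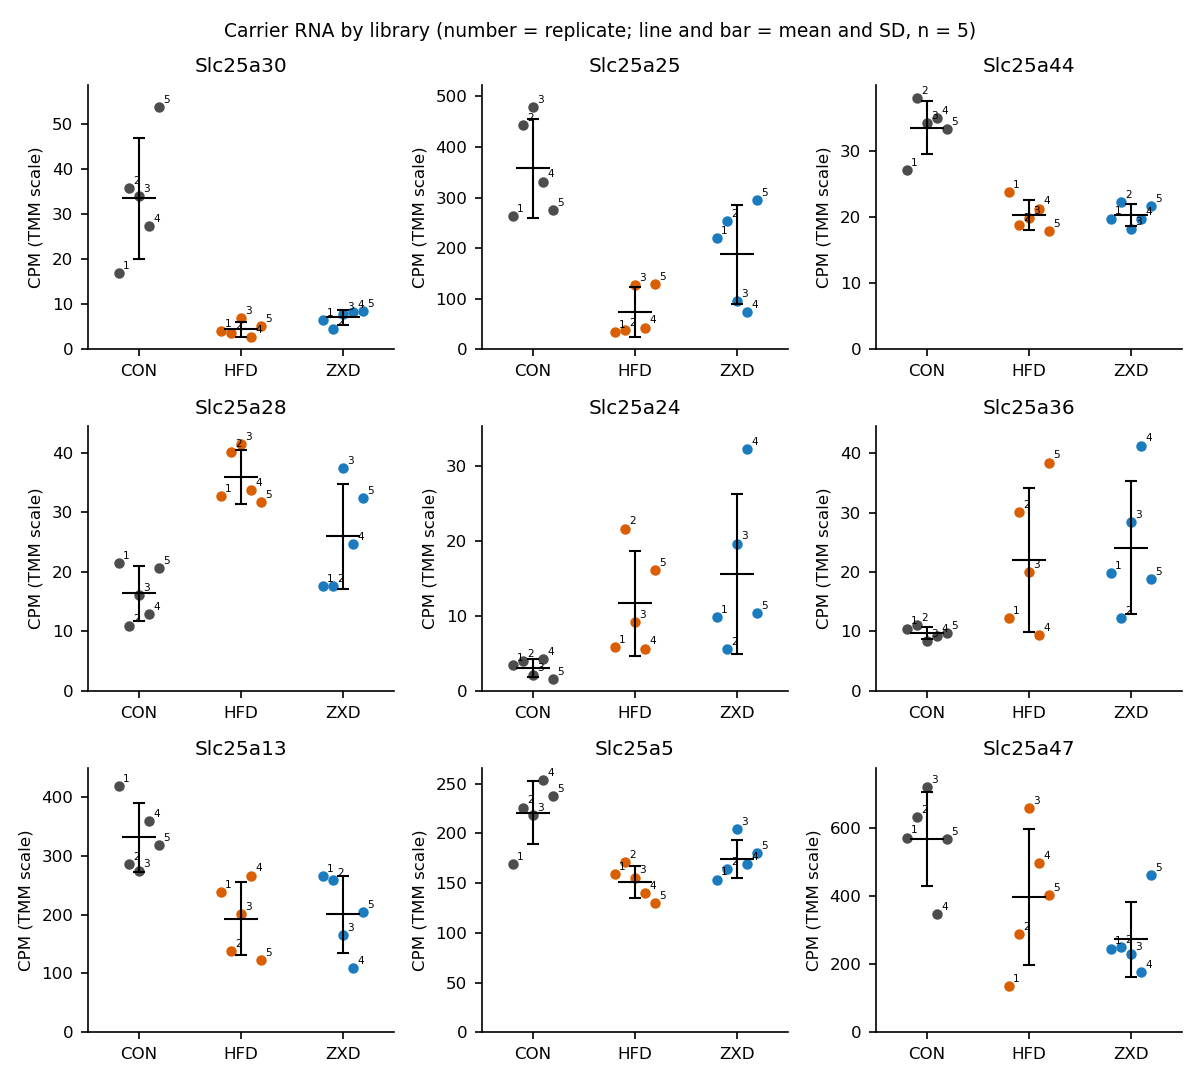
CPM on the TMM scale of 9 carriers by library (points, numbered by replicate), with the mean and SD of 5 libraries per group. HFD lies wholly below CON for Slc25a30, Slc25a25, Slc25a44 and Slc25a13 and wholly above it for Slc25a28 and Slc25a24; HFD 2, HFD 5, ZXD 3 and ZXD 4 are the highest points of their groups for Slc25a24 and Slc25a36.

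Ratios of 2 paralogues within a library do not depend on scaling. They were compared for 9 pairs in 3 comparisons with a two-sided exact permutation test, adjusted over the 27 tests. The smallest p that 5 against 5 libraries allow is 0.0079. Slc25a24 against Slc25a25 had log2 ratios of -6.22, -6.77, -7.81, -6.27 and -7.45 in CON and -2.54, -0.81, -3.78, -2.92 and -2.98 in HFD. The groups were far apart, with a mean of -6.90 ± 0.707 in CON and -2.61 ± 1.10 in HFD (SD, n = 5, exact permutation p = 0.0079, adjusted p = 0.0238). In ZXD the same ratio was -4.48, -5.49, -2.27, -1.19 and -4.82, between HFD and CON for 3 of 5 libraries. The 3 other pairs that passed also did not overlap between HFD and CON and had the same p and adjusted p. The Slc25a14 to Slc25a30 ratio was -3.29 ± 0.475 in CON and -0.51 ± 0.331 in HFD. For Slc25a4 to Slc25a5 it was -5.79 ± 0.806 in CON and -4.05 ± 0.810 in HFD. There HFD 3, at -5.08, all but met CON 2, at -5.09, and HFD 2 and HFD 5 stood highest, at -3.21 and -3.23. For Slc25a33 to Slc25a36 the ratio was 1.27 ± 0.217 in CON and -0.24 ± 0.989 in HFD. There HFD 4, at 0.955, came close to CON 1, at 1.09, and HFD 2 and HFD 5 stood lowest, at -1.18 and -1.33. The mitoferrin ratio, Slc25a28 to Slc25a37, was -0.32 ± 0.725 in CON and 1.34 ± 0.830 in HFD (n = 5, exact permutation p = 0.0238, adjusted p = 0.0643), which did not pass. For Slc25a23 to Slc25a25 the ratio was -1.50 ± 0.614 in CON and 0.18 ± 1.55 in HFD (n = 5, exact permutation p = 0.0794, adjusted p = 0.165), which did not pass. The differences for Slc25a12 to Slc25a13, 0.05, and for Slc25a39 to Slc25a40, 0.11, were smaller than the SDs of either group.

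**Figure D4:**
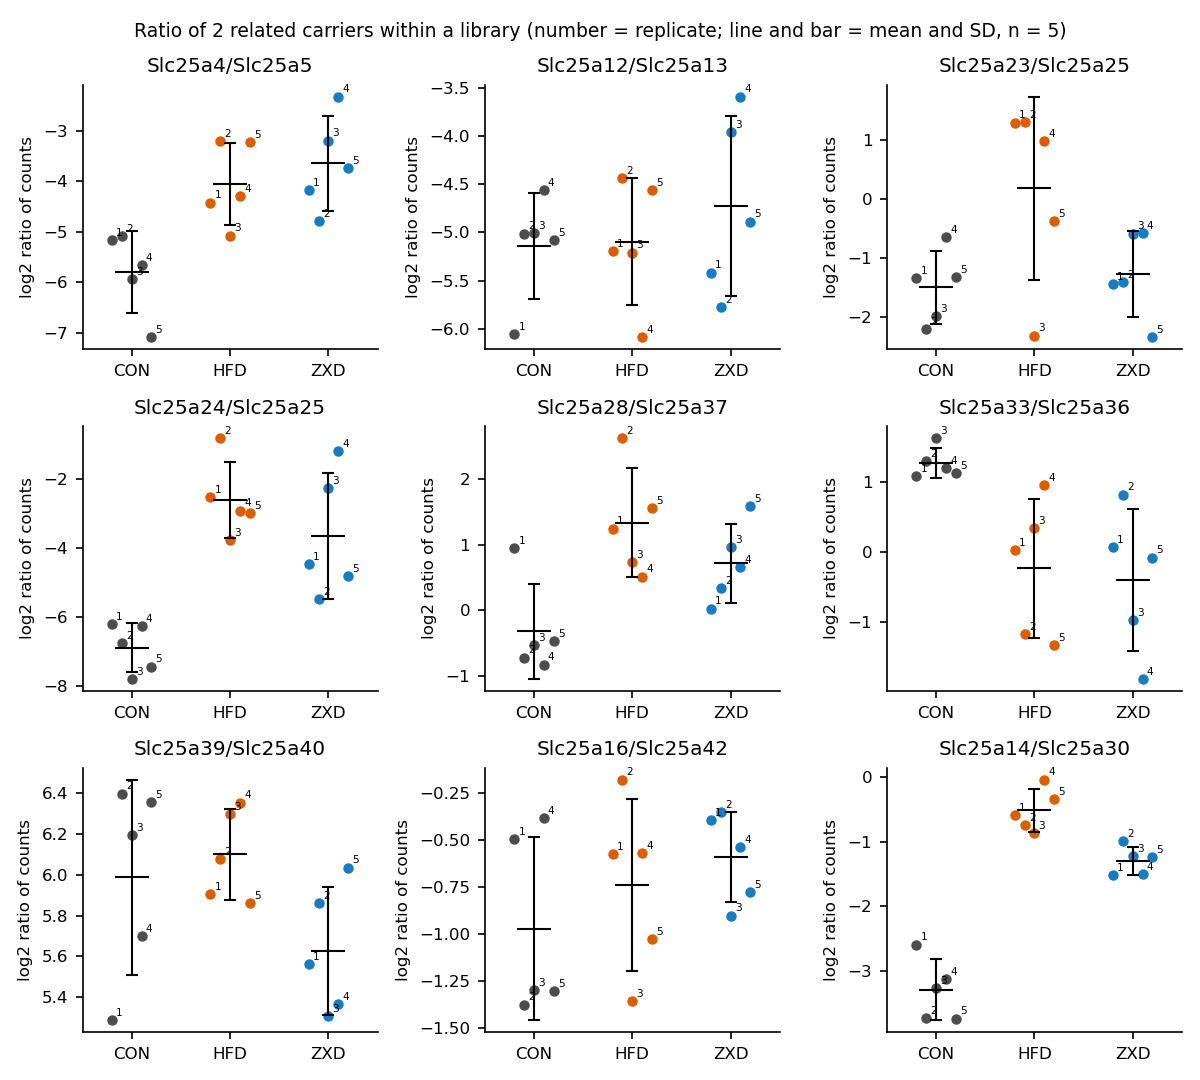
Log2 ratios of 9 paralogue pairs by library in CON, HFD and ZXD, with the mean and SD of 5 libraries. CON and HFD do not overlap for Slc25a4 to Slc25a5, Slc25a24 to Slc25a25, Slc25a33 to Slc25a36 and Slc25a14 to Slc25a30. For Slc25a4 to Slc25a5 these groups all but meet, and for Slc25a14 to Slc25a30 ZXD lies wholly below HFD.

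The comparison of ZXD with HFD asked what differed in diet-fed rats that also received the decoction. No carrier passed, as no gene did (0% of 13163) in edgeR's quasi-likelihood test, where 16.5% of all genes and 4 of the 39 carriers had an unadjusted p under 0.05. DESeq2 called 348 genes and limma voom none, with no carrier in either. The ZXD and HFD libraries did not overlap for 1 carrier, which was lower in ZXD, where 1.53% of all genes were lower without overlap and 2.14% were higher. The carriers' median log2 fold change was -0.00, against 0.02 over all genes. Slc25a25 had the highest value, 1.34 (SE 0.46, 95% interval 0.37 to 2.31, unadjusted p = 0.0101, adjusted p = 0.196, range over 25 alternatives 0.0678 to 0.447). ZXD 1, ZXD 2 and ZXD 5 lay above all HFD libraries for it, and ZXD 3 and ZXD 4 within their range. For Slc25a30 the value was 0.67 (SE 0.30, adjusted p = 0.286). Its ratio to Slc25a14 differed, however, with a Slc25a14 to Slc25a30 log2 ratio of -0.51 ± 0.331 in HFD and -1.29 ± 0.217 in ZXD and no overlap (n = 5, exact permutation p = 0.0079, adjusted p = 0.0238). No other of the 9 pairs passed in this comparison. Slc25a14 held 29 to 61 counts in these libraries, and the pairs were chosen with earlier results of these data known. The other 2 carriers with an unadjusted p under 0.05 are named after their values were seen. Slc25a29, a carrier of basic amino acids, was at 4.66, 4.74, 5.90, 8.38 and 6.44 CPM in HFD and 4.13, 4.52, 3.77, 2.68 and 3.19 in ZXD, without overlap. Its log2 fold change was -0.72 (SE 0.26, adjusted p = 0.213). Slc25a38 was at 47.7, 39.3, 53.2, 51.2 and 44.2 CPM in HFD and 42.3, 43.2, 33.7, 27.8 and 35.5 in ZXD, and had a log2 fold change of -0.37 (SE 0.14, adjusted p = 0.221). Endothelial markers, 302 to 456 CPM in ZXD against 61.4 to 266 in HFD, stood apart between these groups, and their part in these values was not tested. For Slc25a28 the log2 fold change was -0.47 (SE 0.23, adjusted p = 0.317), and for Slc25a44 it was -0.00 (SE 0.11, adjusted p = 0.998).

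ZXD against CON compared the decoction-treated diet livers with chow, using the same CON libraries as above. Here 6 carriers rose and 10 fell, or 41% of the 39 against 32.7% of all genes tested, of which 17.9% were called higher and 14.8% lower. An unadjusted p under 0.05 was found for 20 carriers and 43.7% of all genes. The groups did not overlap for 11 carriers. Of these, 4 were higher in ZXD (8.20% of all genes) and 7 lower (9.79%). The carriers' median log2 fold change was -0.35, against 0.03 over all genes. On library totals the medians were 0.09 and 0.45, with 10 carriers called higher and 3 lower. Of the carriers called in either comparison with CON, 10 were called in both, which is 76.9% of the 13 and 62.5% of the 16. The 2 comparisons share the CON libraries, so this overlap is a description. The rises were in Slc25a24 (log2 fold change 2.34, SE 0.51, adjusted p = 0.00453), Slc25a43 (2.02, SE 0.41, adjusted p = 0.00300), Slc25a4 (1.97, SE 0.50, adjusted p = 0.00979), Slc25a36 (1.30, SE 0.37, adjusted p = 0.0161) and Slc25a28 (0.66, SE 0.23, adjusted p = 0.0389). Slc25a54 was called as well (adjusted p = 0.00421). Without HFD 2, HFD 5, ZXD 3 and ZXD 4 the values were 1.49, 1.56, 1.12, 0.79 and 0.46 for the first 5 of these. Slc25a4 (adjusted p = 0.0639, the highest of 25 alternatives, whose lowest was 0.00052) and Slc25a28 (adjusted p = 0.232, the highest of 25, whose lowest was 0.0026) then no longer passed. Falls were found for Slc25a30 (log2 fold change -2.23, SE 0.30, adjusted p = 0.000214), Slc25a42 (-1.16, SE 0.26, adjusted p = 0.00483), Slc25a47 (-1.06, SE 0.36, adjusted p = 0.0343) and Slc25a44 (-0.72, SE 0.11, adjusted p = 0.000605). Slc25a10, Slc25a13, Slc25a16, Slc25a23, Slc25a38 and Slc25a39 fell by 0.46 to 0.89 on the log2 scale. Without the same 4 libraries these 6 and Slc25a47 no longer passed, with adjusted p-values of 0.0617 for Slc25a10, 0.0549 for Slc25a16 and 0.0872 for Slc25a38. On library totals the log2 fold changes of these 3 were -0.29, -0.31 and -0.11 and did not pass either (adjusted p = 0.177, 0.128 and 0.482, the highest of 25 alternatives for each, whose lowest were 0.00219, 0.00258 and 0.00264). Slc25a25 had a log2 fold change of -0.93 (SE 0.45, adjusted p = 0.125) and Slc25a5 one of -0.34 (SE 0.13, adjusted p = 0.0527), and neither passed.

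Single libraries ended several of the calls against CON in ZXD. Slc25a13 was lost without any 1 of CON 1 to CON 5, HFD 3 or ZXD 3 to ZXD 5 (adjusted p 0.0508 to 0.0953). Slc25a23 was lost without any 1 of CON 3 to CON 5, HFD 1, HFD 4, ZXD 1 or ZXD 3 to ZXD 5 (adjusted p 0.0501 to 0.131). Slc25a28 was lost without any 1 of CON 2 to CON 4 or ZXD 3 to ZXD 5 (adjusted p 0.0611 to 0.116). Slc25a39 was lost without any 1 of CON 2, CON 3, CON 5 or ZXD 3 to ZXD 5 (adjusted p 0.0603 to 0.0794). Slc25a47 was lost without any 1 of CON 2, CON 3, CON 5 or ZXD 1 to ZXD 4 (adjusted p 0.0521 to 0.0838). Slc25a36 was lost without ZXD 4 (adjusted p = 0.0506, log2 fold change 1.02). Slc25a30, Slc25a42, Slc25a43, Slc25a44, Slc25a24 and Slc25a54 stayed called under every alternative in which they were tested.

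Mitochondrial transport and import genes outside the family were read from the same fit. Of 57 such genes 55 were tested. In HFD against CON 4 rose and 7 fell, or 20% of those tested against 21.0% of all genes, with a median log2 fold change of -0.10 against 0.02. The share called is thus close to that of all genes. Letm1, an inner-membrane cation exchanger, fell the most clearly, from 45.9 ± 12.4 CPM in CON to 15.2 ± 4.38 in HFD (log2 fold change -1.59, SE 0.22, adjusted p = 0.000249), and was at 26.6 ± 3.18 in ZXD. Mtch2, an outer-membrane relative of the carriers that inserts proteins, fell from 217 ± 20.9 to 133 ± 15.1 CPM (log2 fold change -0.71, SE 0.13, adjusted p = 0.00212). The rises were led by Timm17a, a subunit of the inner-membrane import channel, from 11.9 ± 2.5 to 20.2 ± 3.02 CPM (0.76, SE 0.15, adjusted p = 0.00345). Sfxn3 rose from 3.98 ± 0.633 to 8.82 ± 4.41 CPM (1.15, SE 0.32, adjusted p = 0.0220), and Vdac2, an outer-membrane channel, from 94.6 ± 6.24 to 123 ± 12.1 CPM (0.38, SE 0.11, adjusted p = 0.0264). In ZXD against HFD none of the 55 passed and 9 had an unadjusted p under 0.05, as did 16.5% of all genes. In ZXD against CON 6 rose and 15 fell, or 38.2% against 32.7% of all genes. Of 11 regulators of mitochondrial biogenesis, Tfam, which packages and transcribes mitochondrial DNA, and Tfb2m, a mitochondrial transcription factor, fell in HFD against CON (log2 fold changes -0.46 and -0.42, adjusted p = 0.0236 and 0.0421), and 9 did not pass, a share of 18.2% called against 21.0% of all genes. In ZXD against CON 1 rose and 3 fell, or 36.4% against 32.7%.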

How the data were processed

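Liver RNA sequencing of 15 libraries (CON, HFD and ZXD, 5 each) was analysed from 1 deposited table. Libraries were assigned to groups by their titles. The authors deposited whole-number read counts and FPKM values per gene and library, per the file headers. Deposited FPKM equalled count divided by gene length and total count within 0.01% for 100% of values above 0. The submitters' processing notes name edgeR; the aligner, counting tool, use of strand, genome build and annotation were not given in the sources used here, so the table's coordinates are not printed.

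Low genes were removed by filterByExpr (group as the design, minimum count of 10 and total of 15), leaving 13163 of 21576 genes. Counts were scaled with TMM factors and tested in 1 quasi-likelihood fit over all libraries with group as the term (edgeR 4.0.16, R 4.3.3, 12 residual degrees of freedom). P-values were adjusted by Benjamini-Hochberg over all genes tested, and genes were called at an adjusted p under 0.05. SEs were obtained as the size of a log2 fold change over the root of its F statistic. CPM and group means ± SD use the TMM-scaled library size. A count of 3 was 0.183 to 0.285 CPM, which covers counting error alone. Paralogue ratios are log2 of counts plus 0.5, tested by two-sided exact permutation and adjusted over 27 tests. Alternatives were library totals, RLE size factors, no and a strict filter (at least 1 CPM in 5 libraries), DESeq2 1.42.0, limma 3.58.1 voom, 2-group fits, a replicate block and leaving out libraries. The fit was tested on simulated data.

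The members, substrate classes, paralogue pairs and gene lists were chosen with earlier results of these data known. The rule for naming takes every carrier called in any comparison, the carrier with the highest mean FPKM of each class and both members of each tested pair, with values per library for up to 3 called carriers per class. Of the list outside the family it takes up to 3 per direction with the smallest adjusted p in HFD versus CON. Promoter sequences come from a RefSeq table of GRCr8, in which 35 of 44 carriers were matched by symbol. The pair of Slc25a18 and Slc25a22 was not analysed here, nor was a simvastatin group that the labels mention. Single results of 2 genes, 1 of them a carrier, are not reported here or plotted, though counts and medians over the lists include them.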

Additional observations from a re-analysis of the deposited data

Results flagged for a closer look

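Within each group of 5 libraries, a carrier was examined for a single library whose gap to the nearest other exceeded 0.71 of the group's range. Of 117 such groups 6 met this, and chance gives about 1 in 20. Slc25a10 was 247 CPM in HFD 1, with the nearest library at 177. Slc25a23 was 212 CPM in CON 4 (nearest 121) and 25.7 CPM in HFD 3 (nearest 83.2). Slc25a27 was 8.71 CPM in HFD 3 (nearest 4.06). Slc25a46 was 32.4 CPM in CON 1 (nearest 39.4). Slc25a47 was 462 CPM in ZXD 5 (nearest 252).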

How the results depend on the processing

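Of the 13 carriers called in HFD against CON, Slc25a25, Slc25a28, Slc25a30 and Slc25a44 kept their call under every alternative run, as did 6 of 16 in ZXD against CON (Slc25a24, Slc25a30, Slc25a42, Slc25a43, Slc25a44 and Slc25a54, the last over 23 alternatives and the others over 25). Leaving out HFD 2 and 5, or these with ZXD 3 and 4, was chosen after seeing the data. No carrier changed sign in a comparison in which the main fit called it. In HFD against CON the main counts were 5 higher and 8 lower. They became 9 and 3 on library totals, 2 and 7 with limma voom, 2 and 5 without HFD 2, HFD 5, ZXD 3 and ZXD 4, 1 and 4 without HFD 2 and 5, and 1 to 5 and 4 to 9 with 1 library left out. Higher calls were 1 to 2 when HFD 2, HFD 5, CON 2, CON 3 or CON 5 was the library left out, and lower calls 4 to 5 for these and CON 4. In ZXD against CON the main counts of 6 and 10 became 10 and 3 on library totals, 3 and 3 without the same 4 libraries, and 4 to 6 and 6 to 12 with 1 library left out, with 6 lower without CON 3, CON 5 or ZXD 4. On library totals 91.4% of all calls were higher in HFD against CON, against 47.9% on the TMM scale, and 90.6% against 54.8% in ZXD against CON. In ZXD against HFD no carrier was called under any alternative. Over all genes, calls in HFD against CON went from 2758 to 5890 on library totals, 1604 without the 4 libraries and 1043 without HFD 2 and 5, and were 1734, 1822, 1697 and 1730 without CON 3, CON 4, HFD 2 or HFD 5. In ZXD against CON they went from 4299 to 6669 and 1957 in the first 2 of these settings. DESeq2 called 348 genes in ZXD against HFD, where edgeR called 0. The cause of these changes was not tested.

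Replicate numbers are shared by the groups, but same-numbered libraries correlated in their deviations from the group means at only -0.0778 to 0.26, -0.547 to 0.105 and -0.158 to 0.0149 (HFD with CON, ZXD with HFD, ZXD with CON), so the number is not taken to pair them. For HFD with CON, 3 of 5 pairs exceeded 0.1 and 3 of 5 libraries correlated best with their own number, a hint from the data alone. With a replicate block, carriers called higher and lower were 2 and 5 in HFD against CON (without Slc25a12, Slc25a13, Slc25a16, Slc25a36, Slc25a43 and Slc25a54), 5 and 7 in ZXD against CON and 0 in ZXD against HFD. Block permutation of the paralogue ratios passed 0 of 9 pairs in each comparison, since its smallest p is 0.0625. With 1 library left out, 4 to 5, 1 to 2 (2 without HFD 3 or ZXD 5) and 4 to 5 pairs passed in the 3 comparisons, against 4, 1 and 4.

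Changes of sign were confined to carriers in comparisons in which the main fit did not call them. Among them, Slc25a3 in ZXD against CON was called higher on library totals (adjusted p = 0.0281). On library totals the log2 fold changes in HFD against CON were 0.36 for Slc25a14, 0.27 for Slc25a3, 0.025 for Slc25a37, 0.26 for Slc25a38, 0.16 for Slc25a39 and 0.038 for Slc25a40. In ZXD against CON they were 0.087 for Slc25a12, 0.27 for Slc25a14, 0.32 for Slc25a3, 0.31 for Slc25a40 and 0.089 for Slc25a5, and in ZXD against HFD 0.0036 for Slc25a44. Slc25a37 in HFD against CON was 0.0056 without the 4 libraries and 0.0036 without HFD 2 and 5. In ZXD against HFD, leaving out HFD 2 and 5 gave -0.23 for Slc25a13, 0.11 for Slc25a23, -0.0085 for Slc25a3 and -0.12 for Slc25a33, and leaving out the 4 libraries gave 0.15 for Slc25a16 and 0.28 for Slc25a23. Slc25a33 was -3.1e-05 in the 2-group fit, and Slc25a37 was 0.099 with voom and 0.057 with the replicate block. With 1 library left out, HFD against CON spanned -0.19 to 0.045 for Slc25a14 and -0.080 to 0.21 for Slc25a29, and ZXD against CON -0.21 to 0.031 for Slc25a40. ZXD against HFD spanned -0.086 to 0.21 for Slc25a13, -0.20 to 0.030 for Slc25a14, -0.21 to 0.087 for Slc25a16, -0.038 to 0.76 for Slc25a24, -0.023 to 0.095 for Slc25a3, -0.11 to 0.22 for Slc25a33, -0.15 to 0.43 for Slc25a36, -0.25 to 0.17 for Slc25a37 and -0.073 to 0.062 for Slc25a44.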

Other observations

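Slc25a52, a mitochondrial NAD carrier, had 0 counts in CON 4 and in ZXD 5. The other 13 libraries held 18 to 45 counts. A count of 0 allows up to 0.266 CPM in CON 4 and 0.217 CPM in ZXD 5, where the lowest of the other libraries was at 1.10 CPM.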
